A study of Sus scrofa with 63 samples.

Results

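Immediate early genes and stress response genes were followed in the liver of growing pigs by 7 members, FOS, JUN, EGR1, MYC, GADD45B, GADD45G and DUSP1. The members were chosen with earlier results of these data known, and were found by their gene symbol in the array annotation. They are 7 of 6765 genes that the annotation names by 1 symbol, and they are measured by 10 of the 23935 probe-sets that are not controls. The values come from 63 GeneChip Porcine Genome Arrays, each hybridised with liver RNA of 1 German Landrace pig. All animals were HP offspring, which means that their dams ate a high protein diet with 30% crude protein during gestation. Offspring of dams on the adequate protein diet were not analysed here. The stages were 94 days post conception (94 dpc, 16 fetuses) and 1, 28 and 188 days post natum (1 dpn, 16 piglets; 28 dpn, 15 animals; 188 dpn, 16 animals). Adjacent stages define period I (94 dpc to 1 dpn), period II (1 dpn to 28 dpn) and period III (28 dpn to 188 dpn).

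Several features of the husbandry went with the stage. Fetuses were taken by caesarean section in an experiment of their own, the piglets of 1 dpn were 36 h old, and both sets were the lightest and heaviest of their litters and were killed by injection. The animals of 28 and 188 dpn had been fostered on sows of the adequate protein diet, stood near the middle of the growth range, were fasted overnight and were stunned electrically and bled. Age, experiment, choice by weight, fasting, manner of death and any difference in handling of RNA and arrays cannot be told apart in these data. Signs of RNA quality and labelling differed between stages: the actin probe-sets differed between the 3′ and the 5′ end by a mean of 2.44, 1.59, 3.66 and 4.10 log2 units at 94 dpc, 1, 28 and 188 dpn, and the RNA added as a labelling control by 0.15, 0.94, 1.29 and 0.99. The labelling control was also uneven within 2 stages, with arrays numbered as replicates within a stage. At 28 dpn it gave 0.72 to 0.97 on replicates 1 to 5, 14 and 15, and 1.39 to 1.91 on replicates 6 to 13. At 188 dpn it gave 1.39 to 1.70 on replicates 7 to 10 and 0.65 to 0.94 on the others. The part of these signs in the changes between stages, and in relations between genes within 28 and 188 dpn, was not tested. The study sampled sib pairs balanced for sex, but neither is in the labels, so p-values treat all animals as independent.

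Immediate early genes are transcribed within minutes of a stimulus, from factors that are already in the cell, and their mRNAs decay quickly. FOS and JUN proteins pair to form the transcription factor AP-1, EGR1 is a zinc finger transcription factor induced through ERK signalling, and MYC drives growth and ribosome production. GADD45B and GADD45G are small proteins induced by stress that bind kinases of the p38 and JNK pathways, and DUSP1 is a phosphatase that switches off p38, JNK and ERK. In liver these genes are known for a rapid rise after partial hepatectomy, handling, hypoxia and hormones of stress and fasting.

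The values are log2 signals scaled per array to a common trimmed mean. FOS, JUN, MYC, GADD45G and DUSP1 had 1 probe-set each, EGR1 had 3 and GADD45B had 2, and the probe-set with the highest mean over all arrays stands for a gene unless another is named. All 12 hepatocyte markers measured were above background on at least 50% of the arrays at every stage, as the labelled tissue requires. The array median fell from 7.38 at 94 dpc to 7.23, 6.83 and 6.72 at the later stages, that is by 0.16, 0.40 and 0.11 over the consecutive periods, shifts against which a change of a gene can be read. One fetal array, 94 dpc replicate 6, stood apart. Its actin probe-sets differed by 4.30 log2 units between the 3′ and the 5′ end (median of the stage 2.25), and its mean correlation with the other fetal arrays was the lowest, at 0.852. Its macrophage markers averaged 6.86 against 9.60 to 10.48 on the other fetal arrays. Results that rest on the fetal arrays were therefore also computed without it.

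Most members had a lower level at 1 dpn than at 94 dpc, and most, apart from MYC and GADD45G, rose afterwards. In period I, 5 of the 7 genes fell (FOS, EGR1, MYC, GADD45G and DUSP1) and none rose, where 34.0% of all 12839 probe-sets tested fell. Without 94 dpc replicate 6 all 7 passed as falls, since JUN and GADD45B, close to the threshold, then passed too. In period II, 5 of 7 rose (FOS, JUN, EGR1, GADD45B and DUSP1) and none fell, where 28.8% of 13078 probe-sets rose. In period III, 3 of 7 rose (FOS, JUN and DUSP1), where 12.3% of 12418 probe-sets rose. These counts take 1 probe-set per gene. Over all 10 member probe-sets, 5 fell in period I and 3 rose in period III. In period II 6 of the 10 rose and 1, the second of EGR1, fell. The median change of the 7 genes was -1.59, 0.52 and 0.20 log2 units over the same periods, beside -0.10, -0.15 and -0.07 over all probe-sets tested. Calls are limma's moderated test at a Benjamini-Hochberg adjusted p under 0.05, over all probe-sets tested in the comparison. Of all calls, 40.2%, 40.1% and 35.4% were rises in the 3 periods, which became 50.9%, 54.6% and 56.2% when each array was centred on its median and 48.2%, 51.5% and 47.3% after quantile normalization. The members' counts under centring were 5 fallen in period I, 6 risen in period II and 3 risen in period III.

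**Figure D1:**
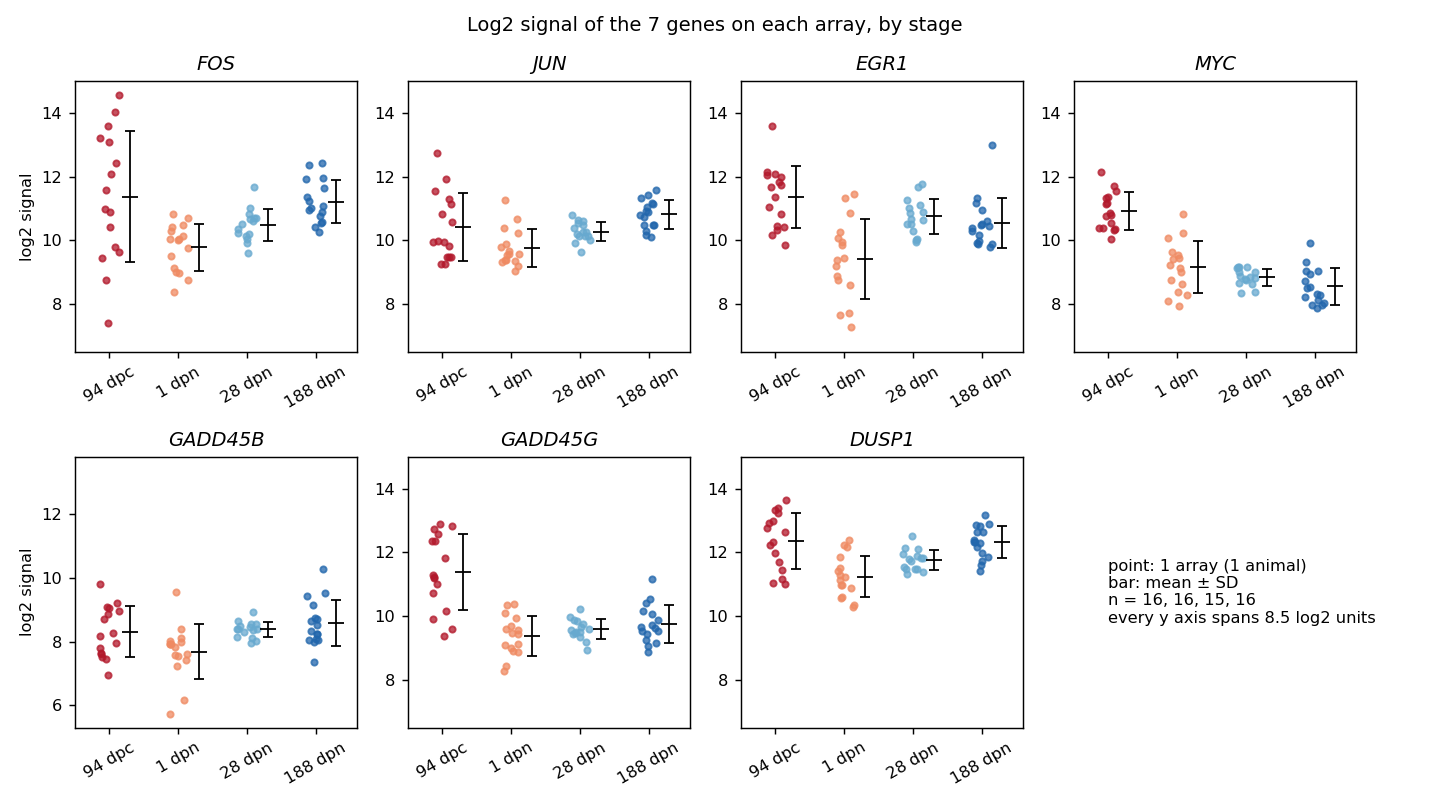
Log2 signal of each of the 7 genes (1 panel per gene, vertical axes of equal span) on every array at 94 dpc, 1 dpn, 28 dpn and 188 dpn. Points are single animals and bars are mean ± SD (n = 16, 16, 15 and 16); FOS spans 7.42 to 14.55 at 94 dpc, and the MYC points of 94 dpc lie above all those of 28 and 188 dpn.

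FOS, the partner of JUN in AP-1, had the widest range of the members. Its log2 signal ran from 7.42 over a median of 11.28 to 14.55 at 94 dpc, from 8.38 over 10.03 to 10.81 at 1 dpn, from 9.60 over 10.52 to 11.69 at 28 dpn and from 10.27 over 11.05 to 12.43 at 188 dpn. The fetal arrays thus reached above every later array, and only replicate 6 lay below them all; without it the lowest fetal value was 8.77, above the 2 lowest arrays of 1 dpn. FOS fell by 1.59 log2 units (SE 0.51, 3.01-fold, limma adjusted p = 0.0089) in period I, and by 1.86 (SE 0.47, adjusted p = 0.00106) without replicate 6, and then rose by 0.70 (SE 0.22, adjusted p = 0.00554) and 0.74 (SE 0.21, adjusted p = 0.00547) in periods II and III. The means of 94 dpc and 188 dpn, 11.37 ± 2.05 (SD, n = 16) and 11.21 ± 0.68 (n = 16), did not pass the test of a difference (limma adjusted p = 0.784). The 2 postnatal rises passed when each pair of stages was fitted on its own but not when all 63 arrays shared 1 estimate of spread (adjusted p = 0.123 and 0.174), a fit in which the wide fetal spread enters.

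JUN, the AP-1 partner of FOS, followed it with smaller differences. Its signal ran from 9.25 over a median of 9.97 to 12.74 at 94 dpc, from 9.03 over 9.57 to 11.28 at 1 dpn, from 9.62 over 10.25 to 10.78 at 28 dpn and from 10.10 over 10.84 to 11.59 at 188 dpn. All stages overlapped. JUN rose by 0.50 (SE 0.17, limma adjusted p = 0.00843) in period II and by 0.54 (SE 0.14, adjusted p = 0.00239) in period III, a gain of 1.04 (SE 0.18, 2.06-fold, adjusted p = 5.85e-06) from 1 dpn to 188 dpn. The change of period I, -0.65 (SE 0.29), missed the threshold at an adjusted p of 0.0545 and passed it without 94 dpc replicate 6, at -0.69 with an adjusted p of 0.0461. In order of mean level, 188 dpn, 94 dpc and 28 dpn did not differ between neighbours (adjusted p = 0.187 and 0.627), and 1 dpn was lowest. As for FOS, the rises of periods II and III did not pass in the fit of all 63 arrays (adjusted p = 0.0509 and 0.0735).

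MYC, the growth-promoting factor, was the member with the clearest separation of the stages. Its signal ran from 10.03 over a median of 10.82 to 12.15 at 94 dpc, from 7.94 over 9.18 to 10.81 at 1 dpn, from 8.35 over 8.85 to 9.17 at 28 dpn and from 7.87 over 8.41 to 9.91 at 188 dpn. Every fetal array lay above every array of 28 and of 188 dpn. Such non-overlap with the lower values at the later stage was found for 14.2% of 13235 probe-sets between 94 dpc and 28 dpn and for 16.1% of 13377 between 94 dpc and 188 dpn. MYC fell by 1.77 (SE 0.24, 3.40-fold, limma adjusted p = 1.48e-07) in period I and was 5.20-fold lower at 188 dpn than at 94 dpc (log2 change -2.38, SE 0.20, adjusted p = 1.04e-12). Without 94 dpc replicate 6 the changes of period I were -1.80 for MYC, -1.99 for EGR1, -2.02 for GADD45G and -1.21 for DUSP1, with adjusted p of at most 0.000178. Periods II and III gave -0.32 (SE 0.21, adjusted p = 0.175) and -0.29 (SE 0.16, adjusted p = 0.151), and the 2 together, 1 dpn to 188 dpn, gave a fall of 0.61 (SE 0.24, adjusted p = 0.0207). That last value is close to the drop of 0.51 of the array median between the same stages.

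EGR1, the zinc finger factor of the ERK response, depended on the probe-set read. By its brightest probe-set the signal ran from 9.87 over a median of 11.52 to 13.59 at 94 dpc, from 7.28 over 9.41 to 11.44 at 1 dpn, from 9.96 over 10.68 to 11.76 at 28 dpn and from 9.78 over 10.41 to 12.98 at 188 dpn. Read this way, EGR1 fell by 1.93 (SE 0.38, 3.82-fold, limma adjusted p = 5.21e-05) in period I and in period II rose by 1.33 (SE 0.33, adjusted p = 0.000703). The 94 dpc level stayed the highest, 0.80 above 188 dpn (SE 0.30, adjusted p = 0.0158). The second probe-set gave -0.39 (adjusted p = 0.41) in period I and, in period II, fell by 0.89 (SE 0.36, adjusted p = 0.0252), opposite to the first. The third gave -0.42 (adjusted p = 0.357) in period I and, in period II, rose by 1.34 (SE 0.32, adjusted p = 0.000383). No statement on EGR1 across periods I and II therefore holds for all 3 probe-sets. Within a stage they moved together, with Pearson r of the first and second of 0.86, 0.94, 0.87 and 0.91 at the 4 stages, but the third tracked the first poorly at 28 dpn (r = 0.27).

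**Figure D2:**
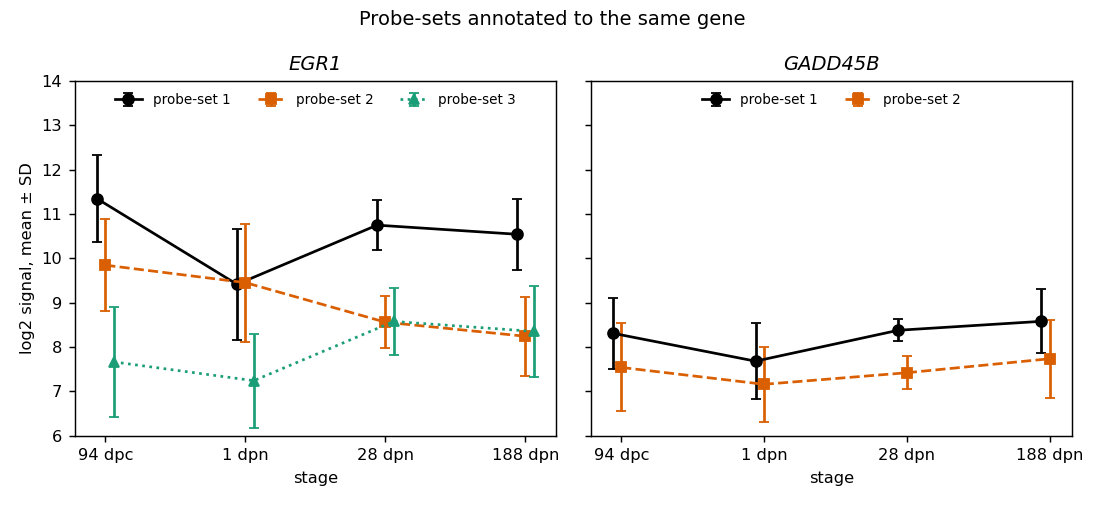
Mean log2 signal with SD (n = 16, 16, 15 and 16) at each stage for the 3 probe-sets annotated to EGR1 and the 2 annotated to GADD45B, numbered by their mean over all arrays. From 1 dpn to 28 dpn EGR1 probe-sets 1 and 3 rise by 1.33 and 1.34 while probe-set 2 falls by 0.89; both GADD45B lines have their lowest mean at 1 dpn.

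GADD45G had the largest change of period I among the 7, close to that of EGR1. Its signal ran from 9.39 over a median of 11.25 to 12.89 at 94 dpc, from 8.26 over 9.45 to 10.38 at 1 dpn, from 8.93 over 9.57 to 10.23 at 28 dpn and from 8.87 over 9.65 to 11.16 at 188 dpn. The upper fetal arrays exceeded every postnatal array, and the lower ones lay within the postnatal range. GADD45G fell by 1.99 (SE 0.32, 3.98-fold, limma adjusted p = 2.87e-06) in period I. It then changed by 0.21 (adjusted p = 0.294) and 0.16 (adjusted p = 0.488) in periods II and III, so the postnatal stages were not separated from their neighbours. Centring each array on its median turned the change of period II into a rise of 0.43 that passed (adjusted p = 0.0248).

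GADD45B, its close relative, had its lowest mean at 1 dpn and similar means at the other stages. Its signal ran from 6.94 over a median of 8.22 to 9.81 at 94 dpc, from 5.74 over 7.86 to 9.55 at 1 dpn, from 7.97 over 8.40 to 8.92 at 28 dpn and from 7.37 over 8.42 to 10.27 at 188 dpn. All stages overlapped, and the 28 dpn arrays lay within 0.95 log2 units of each other. GADD45B rose by 0.70 (SE 0.22, limma adjusted p = 0.00558) in period II, and its mean levels at 94 dpc, 28 dpn and 188 dpn did not differ between neighbours (adjusted p = 0.772 and 0.438). The change of period I was -0.63 (SE 0.28, adjusted p = 0.0531), which passed without 94 dpc replicate 6 (-0.67, adjusted p = 0.0424). The second GADD45B probe-set gave smaller values, -0.38 (adjusted p = 0.3) and 0.26 (adjusted p = 0.308) in periods I and II.

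DUSP1, the phosphatase that shuts down stress kinases, had similar mean signals at 94 dpc and 188 dpn, 12.36 and 12.32. Its signal ran from 10.99 over a median of 12.48 to 13.65 at 94 dpc, from 10.29 over 11.18 to 12.39 at 1 dpn, from 11.33 over 11.78 to 12.50 at 28 dpn and from 11.40 over 12.33 to 13.16 at 188 dpn. DUSP1 fell by 1.12 (SE 0.26, 2.17-fold, limma adjusted p = 0.000561) in period I, then rose in period II by 0.52 (SE 0.18, adjusted p = 0.0118) and in period III by 0.56 (SE 0.15, adjusted p = 0.00388). The difference between 94 dpc and 188 dpn was -0.04 (SE 0.25, limma adjusted p = 0.89) and did not pass. The array median fell by 0.67 between the same stages, so the likeness of the 2 means depends on the scaling. After quantile normalization the rise of period II missed the threshold (0.41, adjusted p = 0.0567).

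Stages that are not adjacent were compared in the same way. The counts of members that fell from 94 dpc were close to the shares over all probe-sets. The array median fell by 0.67 from 94 dpc to 188 dpn and by 0.56 from 94 dpc to 28 dpn. From 94 dpc to 188 dpn 3 genes fell (MYC, GADD45G and EGR1) where 53.1% of probe-sets fell, and FOS, JUN, GADD45B and DUSP1 did not pass. From 1 dpn to 188 dpn 5 genes rose (FOS, JUN, EGR1, GADD45B and DUSP1) where 27.6% of probe-sets rose, by 0.90 to 1.43 log2 units, and 1 gene, MYC, fell where 46.1% of probe-sets fell. From 94 dpc to 28 dpn 4 genes fell (MYC, GADD45G, EGR1 and DUSP1) where 51.0% of probe-sets fell. EGR1 is counted here by its first probe-set. Its second probe-set fell in all 3 of these comparisons, by 1.21 (SE 0.38, limma adjusted p = 0.0051) from 1 dpn to 188 dpn, opposite to the first. The third rose from 94 dpc to 28 dpn by 0.91 (SE 0.35, adjusted p = 0.0195), opposite to the first, and gave 0.69 (adjusted p = 0.0983) from 94 dpc to 188 dpn. These comparisons share arrays with the periods and with each other.

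Markers of other liver cells moved over the same periods. In period I all 8 red cell precursor markers measured fell, from an average of 10.00 to 11.27 over the fetal arrays to 7.26 to 8.20 at 1 dpn, and all 7 neutrophil and myeloid precursor markers fell. In period II 5 of the 8 and 3 of the 7 were tested, so the others had entered period I by their high fetal signal alone. Macrophage markers rose in period II for 7 of 10 and fell in period III for 10 of 10, with averages of 9.70 to 11.15 at 1 dpn, 11.11 to 11.92 at 28 dpn and 10.38 to 11.06 at 188 dpn. Each of these markers was above background on at least 1 fetal array. Of 10 T and NK cell markers on the array, 0 were tested in period I and 5 in period II, and all 5 rose in period II. Those 5 passed the signal filter by 28 dpn alone, the stage where they were higher. Their rise was therefore in part set by the filter. The part of all these cell type markers in the changes of the members was not tested, and in whole liver fewer cells of a type and less RNA per cell cannot be told apart.

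The genes around the members were read from lists of the pathways, with 1 probe-set per gene. Of all named genes tested, 28.0% rose and 30.9% fell in period I, 34.1% rose and 36.8% fell in period II, and 13.6% rose and 26.6% fell in period III. The counts of each list stand beside these shares as a description; no difference between a list and all genes was tested. Of 19 other immediate early genes tested in period I, 7 fell, 2 rose and 10 did not pass, at a median change of -0.38 beside -0.03 over all 5225 named genes tested. HES1, a Notch target, fell by 1.82 (SE 0.18), CYR61, a matrix protein induced by serum, fell by 1.64 (SE 0.25), and KLF10, a TGF-beta induced factor, fell by 1.38 (SE 0.15). In period II 8 of 18 rose and 2 fell at a median of 0.24, led by CYR61 (1.87, SE 0.13), NFKBIA, the inhibitor of NF-kappa-B (1.53, SE 0.14), and CEBPD (1.42, SE 0.16). In period III 4 of 18 rose and 4 fell; CYR61 rose by 0.93 (SE 0.15), CEBPB, a liver transcription factor of the acute phase, by 0.90 (SE 0.14) and BTG2, an inhibitor of proliferation, by 0.79 (SE 0.19). Of the AP-1 relatives, 1 was tested in period I and 2 in each later period. ATF3, the stress-induced partner of JUN, fell by 0.74 (SE 0.31, limma adjusted p = 0.0395) in period I. FOSL2, not tested in period I, rose by 0.57 (SE 0.25, limma adjusted p = 0.0433) in period II. It passed the signal filter there by 28 dpn alone, the stage where it was higher, so its rise was in part set by the filter.

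The relatives of GADD45 and DUSP1 moved in both directions. In the list of GADD45A and the p53 response, 5 of 14 genes fell (35.7%) and 3 rose in period I, 6 of 15 fell (40.0%) and 3 rose in period II, both close to the shares over all named genes, and 2 of 15 fell and 3 rose in period III. GADD45A, the third member of the GADD45 family, fell by 1.04 (SE 0.17, limma adjusted p = 2.41e-06) in period I, and GADD45G fell by 1.99. Of the 5 other DUSP and ERK feedback genes tested, 2 rose and none fell in period I, opposite to DUSP1, and the larger rise was that of DUSP14 (1.69, SE 0.14). In period II 3 of these 5 rose and 1 fell; DUSP6, the phosphatase specific for ERK, rose by 1.09 (SE 0.15) and DUSP11 fell by 1.07 (SE 0.11). In period III 1 of 5 changed, a fall of DUSP14 by 0.45 (SE 0.10).

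Of 5 partners and antagonists of MYC, 2 fell in period I, among them MXI1, which competes with MYC for its partner MAX, by 1.20 (SE 0.14), and 3 fell and 1 rose in period II. Of the listed MYC target genes 4 of 16 fell (25.0%) and 3 rose in period I, 8 of 15 fell (53.3%) and 1 rose in period II and 6 of 14 fell (42.9%) and none rose in period III, where 30.9%, 36.8% and 26.6% of all named genes fell; whether the periods differ was not tested. The median of the target genes was 0.01, -0.43 and -0.19 log2 units in the 3 periods, beside -0.03, -0.01 and -0.08 over all named genes. TFRC, the transferrin receptor, fell by 2.19 (SE 0.44) in period I together with the red cell precursor markers, while BOP1, a factor of ribosome assembly, rose by 1.18 (SE 0.45). The fetal median of BOP1 was 5.57, below the mean background of 6.10 at 94 dpc. BOP1 passed the signal filter of period I by 1 dpn alone, so its rise starts near the floor and was in part set by the filter. NOP58, a core protein of small nucleolar RNA particles, fell by 1.95 (SE 0.19) in period II, and GNL3, the nucleolar protein nucleostemin, by 1.68 (SE 0.19).

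Kinases and factors that act upstream were measured in part. Of 9 tested in period I, where 28.0% of all named genes rose, 6 rose and 2 fell at a median of 0.77, led by STAT3, the factor activated by interleukin 6, which rose by 1.56 (SE 0.15); in period II 4 rose and 2 fell, and in period III 1 of 8 rose and 1 fell. The integrated stress response list had 5 of 12 genes up and 2 down in period I, 3 up and 5 down in period II and 7 of 12 down with none up in period III, where 26.6% of all named genes fell. In it ASNS, asparagine synthetase, fell by 3.88 (SE 0.19) in period II and PDIA4, a folding enzyme of the endoplasmic reticulum, rose by 1.85 (SE 0.10) in period I. Of 14 heat shock genes 3 rose and 3 fell in period I, 1 rose and 7 fell in period II, and 3 rose and 4 fell in period III.

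The spread between animals was wider in the fetal livers for 4 of the 7 genes. Because the members were chosen with earlier results of these data known, the p-values of spread describe a chosen set and are no independent evidence. FOS, JUN, GADD45G and DUSP1 varied more at 94 dpc than at the other stages, where 2.55% of 13841 probe-sets did so, and EGR1, MYC and GADD45B did not pass. The test compared absolute deviations from the stage mean at 94 dpc with their average at the other 3 stages, in limma over all probe-sets. The FOS deviations were larger by 1.22 log2 units (SE 0.18, limma adjusted p = 2.41e-06), those of GADD45G by 0.61 (SE 0.12, adjusted p = 0.000604), those of JUN by 0.55 (SE 0.10, adjusted p = 0.00034) and those of DUSP1 by 0.37 (SE 0.10, adjusted p = 0.0157). Without 94 dpc replicate 6 the same 4 genes passed, FOS with 1.06 (adjusted p = 4.11e-06) and DUSP1 with 0.33 (adjusted p = 0.0402). For EGR1, MYC and GADD45B the differences were 0.14 (SE 0.16, adjusted p = 0.658), 0.06 (SE 0.10, adjusted p = 0.779) and 0.26 (SE 0.13, adjusted p = 0.232).

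**Figure D3:**
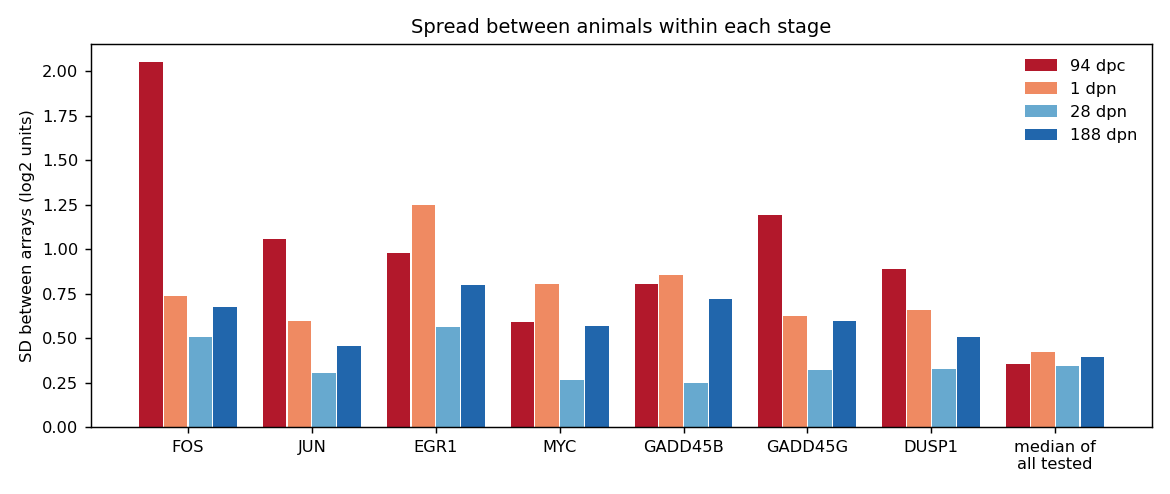
Standard deviation between arrays, in log2 units, of each gene at the 4 stages, with the median over the 13841 probe-sets tested at the right. FOS reaches 2.05 at 94 dpc, against 0.74, 0.51 and 0.68 later and a median of 0.355 over all probe-sets at 94 dpc; EGR1, MYC and GADD45B have their largest SD at 1 dpn.

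The SD of FOS was 2.05 at 94 dpc and 0.74, 0.51 and 0.68 at 1, 28 and 188 dpn. It was the 27th largest of 13841 at 94 dpc, and 77.2% of the variation of FOS within stages lay in the fetal arrays. From the lowest to the highest fetal array FOS differed 140.5-fold, and 55.1-fold without replicate 6 (SD 1.82), while its ranges at the later stages were 4.26-fold to 5.39-fold. JUN spanned 11.2-fold, GADD45G 11.4-fold and DUSP1 6.28-fold over the same fetal arrays. The shares of within-stage variation that lay at 94 dpc were 63.1% for JUN, 62.5% for GADD45G and 50.2% for DUSP1, beside 27.6% for EGR1, 25.1% for MYC and 33.1% for GADD45B. Against single stages, FOS, JUN, GADD45G and DUSP1 all passed against 28 dpn, where 2.46% of probe-sets were wider at 94 dpc, and against 188 dpn, where 2.71% were. Against 1 dpn, where 0.997% were, FOS, JUN and GADD45G passed and DUSP1 did not (0.24, adjusted p = 0.266); 1 dpn was the other stage at which the lightest and heaviest of a litter were taken. Of the 19 other immediate early genes tested 3 (15.8%) had a wider fetal spread, CYR61 (0.52, SE 0.10), IER3 (0.41, SE 0.12) and CEBPB (0.32, SE 0.10), beside 2.60% of 5500 named genes. In the GADD45A and p53 list 1 of 15 genes, BAX, was wider and 2 were narrower, and of 14 heat shock genes 1, HSPB8, was wider. No gene of the remaining lists was wider. The fetal medians of BAX and HSPB8, 6.37 and 6.55, were close to the mean background of 6.10, and their lowest values, 4.28 and 2.95, were below it.

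The same fetuses were high or low for most members. Replicates 8, 10 and 14 were above the stage median for all 7 genes and replicates 5, 6 and 11 for none, out of 16 fetal arrays. FOS read 13.59, 13.21 and 14.04 in the first 3 and 8.77, 7.42 and 9.80 in the others; GADD45G read 12.82, 12.89 and 12.74 against 9.89, 11.00 and 10.72. Replicate 4, highest for FOS (14.55), JUN (12.74) and EGR1 (13.59), was near the middle for GADD45G (11.20) and DUSP1 (12.64). Levels went in part with the accession order. GADD45G read 9.39 to 11.20 in replicates 1 to 6 and 10.72 to 12.89 in replicates 7 to 16, and DUSP1 10.99 to 12.64 and 11.99 to 13.65. The study ran the fetal experiment in several rounds and took sibs of a dam. The labels give neither round nor dam, so their part in the fetal spread and joint variation was not tested. Values of FOS ran through the range without a break into groups, the widest gap being that between replicate 6 and the next array. At 1, 28 and 188 dpn the arrays above the median for all 7 genes numbered 1, 0 and 1, and those above it for none numbered 2, 1 and 1.

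**Figure D4:**
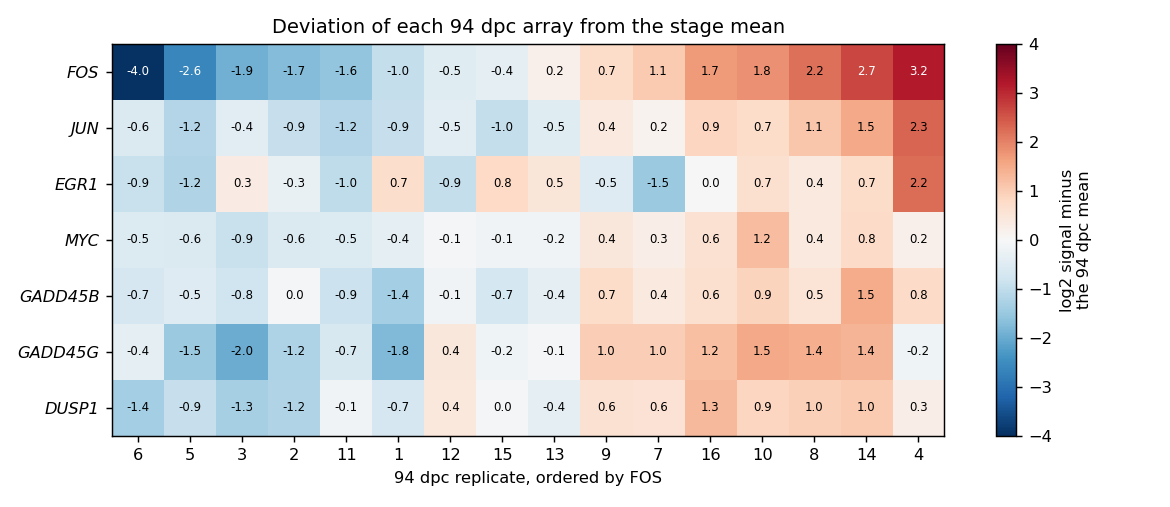
Log2 signal minus the 94 dpc mean for each gene (rows) on each of the 16 fetal arrays (columns, ordered by FOS). JUN, MYC, GADD45B, GADD45G and DUSP1 are mostly below their mean at the left and above it at the right, with GADD45G below it again in replicate 4 (11.20), while EGR1 is low in replicate 7 (9.87 against a FOS of 12.42) and high in replicate 4.

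Joint variation was measured as Pearson r over the animals of 1 stage, for 21 pairs of genes at each of 4 stages, 84 relations in all, with permutation tests and Benjamini-Hochberg adjustment over the 84. As for the spread, these p-values describe a set chosen with earlier results of these data known. At 94 dpc 15 pairs passed, all positive, namely every pair without EGR1. The r of 13 pairs was at least 0.7, a level reached by 1.67% of the 72258231 pairs of tested probe-sets at that stage. MYC and GADD45G gave r = 0.90 (permutation adjusted p = 0.00042; rho = 0.93, adjusted p = 0.00042; r = 0.91 without the 2 arrays farthest from the MYC median). GADD45G and DUSP1 gave r = 0.90 (permutation adjusted p = 0.00042; rho = 0.89, adjusted p = 0.00042; r = 0.89 without 2 arrays). FOS and JUN gave r = 0.87 (permutation adjusted p = 0.0007; rho = 0.84, adjusted p = 0.00168; r = 0.93 without 2 arrays). All 15 pairs passed also without replicate 6, by rho, and without the 2 farthest arrays.

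The pairs with EGR1 did not pass at 94 dpc. Its r was 0.56 with FOS (permutation adjusted p = 0.0651; rho = 0.52, adjusted p = 0.106), which became 0.36 without 2 arrays, and 0.57 with JUN (adjusted p = 0.0649; rho = 0.41, adjusted p = 0.237), which became 0.21. With MYC, GADD45B, GADD45G and DUSP1 it was 0.30, 0.25, 0.05 and 0.19, with permutation adjusted p from 0.41 to 0.939. After birth the pair of FOS and EGR1 was the one that passed at every stage, with r = 0.66 at 1 dpn (permutation adjusted p = 0.0216; rho = 0.70, adjusted p = 0.0164), 0.77 at 28 dpn (adjusted p = 0.00498; rho = 0.69, adjusted p = 0.0243) and 0.65 at 188 dpn (adjusted p = 0.0157; rho = 0.56, adjusted p = 0.0804). Without the 2 farthest arrays these were 0.56, 0.61 and 0.61, and the adjusted p rose to 0.127, 0.103 and 0.0749, so each rests in part on those arrays. Read by the third EGR1 probe-set, r with FOS at 28 dpn was 0.18 (permutation adjusted p = 0.614).

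**Figure D5:**
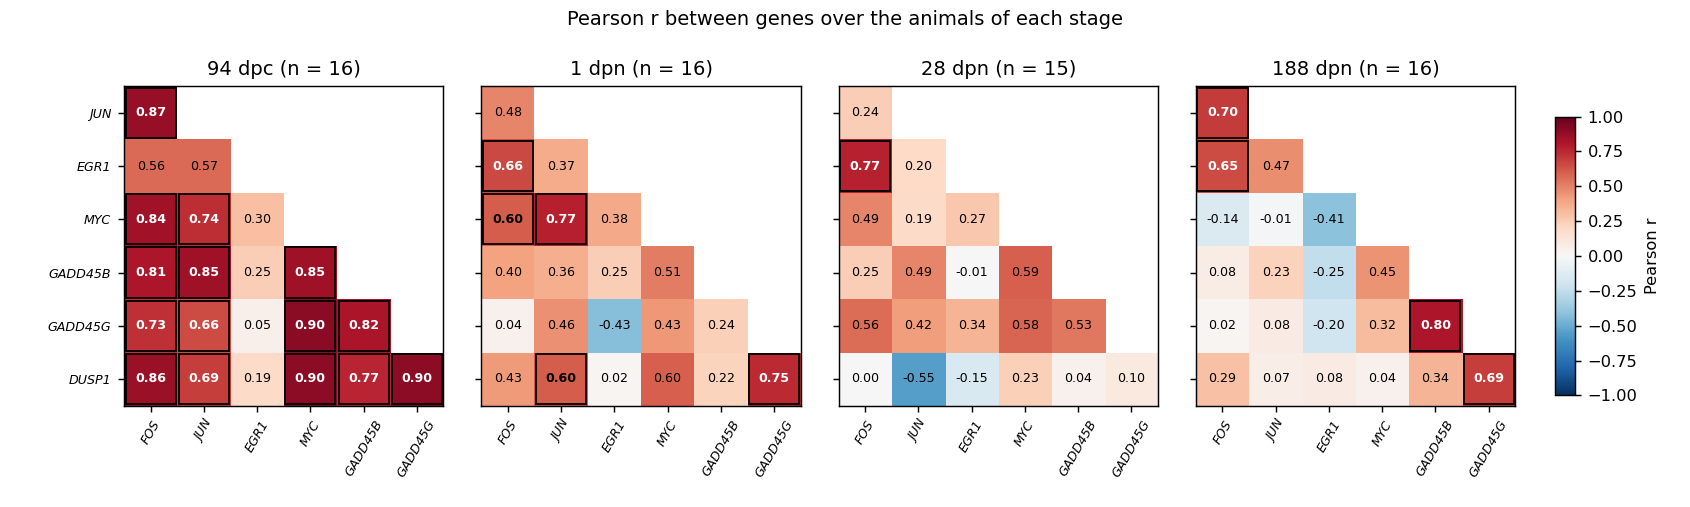
Pearson r between each pair of the 7 genes over the animals of each stage (n = 16, 16, 15 and 16); colour gives r, and frames mark pairs with a permutation adjusted p under 0.05. At 94 dpc 15 of 21 cells are framed, with the EGR1 cells left unframed; at 1, 28 and 188 dpn 5, 1 and 4 are framed.

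Fewer pairs passed after birth. At 1 dpn 5 pairs passed, with r of at least 0.7 for 2 pairs beside 0.849% of all pairs of probe-sets, led by JUN and MYC (r = 0.77, permutation adjusted p = 0.00217; rho = 0.91, adjusted p = 0.00042; r = 0.93 without 2 arrays). At 28 dpn FOS and EGR1 were the single pair, beside 1.30% of all pairs with r of at least 0.7, and JUN and DUSP1 gave r = -0.55 (permutation adjusted p = 0.0876). At 188 dpn 4 pairs passed, with 1 pair at or over 0.7 beside 1.23% of all pairs. GADD45B and GADD45G gave r = 0.80 (permutation adjusted p = 0.00183; rho = 0.66, adjusted p = 0.0241; r = 0.67 without 2 arrays) and FOS and JUN r = 0.698 (adjusted p = 0.0117; rho = 0.69, adjusted p = 0.0164; r = 0.67). GADD45G and DUSP1 gave r = 0.69 at 188 dpn (permutation adjusted p = 0.0112; rho = 0.71, adjusted p = 0.0125) but 0.51 without 2 arrays, which did not pass. The median r of the 21 pairs was 0.77, 0.43, 0.25 and 0.08 at 94 dpc, 1 dpn, 28 dpn and 188 dpn.

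Whether r itself differed between 94 dpc and a later stage was tested by permuting stage labels, 63 differences in all. This test was added after seeing the data, on members chosen with earlier results of these data known. Its p-values are therefore no independent evidence. In 18, 19 and 20 of 21 pairs r was higher at 94 dpc than at 1, 28 and 188 dpn. After adjustment 3 differences passed, all higher at 94 dpc. They were JUN and DUSP1 against 28 dpn (0.69 against -0.55, permutation adjusted p = 0.012), GADD45G and DUSP1 against 28 dpn (0.90 against 0.10, adjusted p = 0.042) and FOS and MYC against 188 dpn (0.84 against -0.14, adjusted p = 0.022). The same 3 passed without replicate 6. All 3 are against 28 or 188 dpn, where the labelling control was uneven between arrays, and its part was not tested. None of the 21 differences between 94 dpc and 1 dpn passed, so the count of 15 against 5 pairs is not shown to be a difference between those stages.

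Quality measures of the fetal arrays were set beside these values. None of 21 relations of the 7 genes with the array median and the 3′ to 5′ differences of actin and GAPDH passed after adjustment, by r (smallest permutation adjusted p = 0.3, 2 relations with an unadjusted p under 0.05) or by rho (smallest adjusted p = 0.0653, 6 relations). The strongest was that of FOS with the array median, at r = -0.57 (permutation p = 0.0211, adjusted p = 0.3) and rho = -0.70 (p = 0.00311, adjusted p = 0.0653), and r = -0.49 without 2 arrays. All 6 relations by rho were with the array median and negative. Beside FOS they were JUN (-0.53), MYC (-0.57), GADD45B (-0.52), GADD45G (-0.56) and DUSP1 (-0.56). These are the genes of the 15 pairs that passed at 94 dpc, while EGR1 gave rho = -0.29 (permutation p = 0.273). The part of the array median in those pairs was not tested. All 15 pairs of 94 dpc passed also when each array was centred on its median. The array median had an SD of 0.07 log2 units at 94 dpc, beside 0.59 (MYC) to 2.05 (FOS) for the members. Centring could therefore change r only little, and it does not show whether the pairs go with the array median. Of 56 relations with the averages of 8 lists of cell type markers none passed (smallest permutation adjusted p = 0.896; 1 unadjusted p under 0.05). That one was FOS with the endothelial markers, at r = 0.54 (permutation p = 0.0165) and rho = 0.24 (p = 0.357), and r = 0.15 without 2 arrays and 0.19 without replicate 6. EGR1 with the endothelial markers gave r = 0.44 (permutation p = 0.0831, adjusted p = 0.896) and rho = 0.61 (p = 0.0129, adjusted p = 0.72), with r = 0.70 without 2 arrays. Without replicate 6 this was the strongest of the 56 relations, at r = 0.71 (permutation p = 0.00276, adjusted p = 0.155) and rho = 0.60 (p = 0.022, adjusted p = 0.775), and again none of the 56 passed after adjustment.

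The genes most like each member were named by the highest Pearson r over all 63 arrays after removing stage means, as a description. The arrays share their scaling, and genes that vary most at 94 dpc weigh more in this measure. FOS was nearest to JUN (0.76), ZFP36, an mRNA decay factor (0.69), CREM (0.67), RGS2 (0.65) and DUSP1 (0.64), and JUN to FOS, ATF3 (0.75), BTG2 (0.74), ZFP36 (0.67) and CYR61 (0.59). At 94 dpc alone ZFP36 reached 0.93 with FOS and 0.92 with JUN, beside 0.52 and 0.48 over the 47 arrays of the other stages. DUSP1 and GADD45G shared CEBPB (0.74 and 0.83) and each other (0.78). GADD45G was also near GADD45B by its second probe-set (0.72), TOB1 (0.71) and NFIL3 (0.65). DUSP1 was near RGS2 (0.65), BAG3, a heat shock co-chaperone (0.65), and FOS.

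The remaining members had looser neighbours. EGR1 was nearest to IER2, itself an immediate early gene (0.69), and then to FOS (0.53), ETS2 (0.52), RFX1 (0.48) and C17H8orf4 (0.46). MYC was nearest to RHOB (0.68), TXNIP, an inhibitor of thioredoxin (0.67), NFIL3 (0.61), GADD45B (0.59) and KLF9 (0.59), and GADD45B to BTG2 (0.63), ETS2 (0.62), GADD45G (0.62), MYC (0.59) and RHOB (0.59). RHOB and MYC gave 0.64 at 94 dpc and 0.69 at the other stages. ETS2 was read by different probe-sets beside EGR1 and GADD45B.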

How the data were processed

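Each of 63 arrays carried liver RNA of 1 animal. The deposited values are log2 signals; per the labels the submitters' processing notes name GCOS 1.1.1, and on the linear scale every array has a trimmed mean (2% left out at each side) close to 500. The study's methods describe GCRMA and a mixed model that took in sex and dam; the deposited values do not have the form of GCRMA values and the labels give neither factor, so none was fitted. Probe-sets were named from the platform annotation: 10069 have 1 symbol, 198 several and 13668 none. No sequences are shown.

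Probe-sets were tested where the signal exceeded the array median on at least 50% of the arrays of 1 stage compared, in R 4.3.3 with limma 3.58.1 (lmFit, eBayes, two-sided), each pair of stages on its own, with Benjamini-Hochberg adjustment over all probe-sets tested and a threshold of 0.05. All 10 member probe-sets passed the filter in every comparison. Background is the 95th percentile of 23 negative control probe-sets on each array. Correlations used 100000 permutations (NumPy 2.4.6), two-sided, whose smallest p is 1e-05; differences of r were tested on values centred and scaled within a stage. Replicate numbers only name arrays in accession order. Named genes were the members, at most 3 called genes of a list with the largest change, or those with a wider spread at 94 dpc, and the 5 genes nearest to each member. The members and lists were chosen with earlier results of these data known. The methods were tested on simulated data. The number of arrays limits the precision; no depth applies. Alternatives were filters, scaling, variance models, a rank test, other probe-sets and arrays left out.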

Additional observations from a re-analysis of the deposited data

How the results depend on the processing

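Animals could not be paired between stages, since each was killed and sampled at a single stage. Per the study, litters were spread over the postnatal stages, but the labels do not name the litter. Of the counts of members called, those of periods II and III fell from 5 to 3 and from 3 to 1 when all 63 arrays were fitted together. For EGR1 in period II the second probe-set gave -0.89 in place of 1.33. The counts of all probe-sets called became 4472 in period I and 5321 in period II under the filter at the 75th percentile, which leaves fewer probe-sets to test, and 151 in place of 353 had a wider spread at 94 dpc when deviations were taken from the stage median. The pairs called at 1 dpn went from 5 to 3 with centring on the median, to 3 without the 2 farthest arrays and to 9 with the second GADD45B probe-set, which was added after seeing the data, as were the settings without replicate 6 for pairs and array measures and the test of differences of r. At 28 dpn the 1 pair became 2 with quantile normalization, 2 by rho, 2 with the second EGR1 probe-set and 0 without the 2 farthest arrays, and at 188 dpn the 4 pairs became 2 without those arrays. The cause of these shifts was not tested further. The 4 genes with a wider fetal spread and the 15 pairs of 94 dpc kept their number under every alternative run, except 16 pairs with the third EGR1 probe-set. JUN and GADD45B passed in period I under 6 and 5 of the alternatives and missed it in the others, so their calls there depend on the setting. Sex, dam and sib pair could not be modelled, and each animal has a single array.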
